A study of Homo sapiens with 30 samples.

Results

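The cytoplasmic ribosomal protein genes encode the proteins of the large and small subunits of the cytosolic ribosome. They were taken as the protein-coding genes whose symbol is that of a large (RPL) or small (RPS) subunit protein, together with RPLP0, RPLP1, RPLP2 and RPSA, at a mean of 5 CPM or more over all libraries (CPM, read counts scaled to a common library total). Of 61597 gene rows, 87 had such a symbol and 81 were kept, 50 of the large and 31 of the small subunit. Of the others 4 fell under the minimum level, and the 2 Y-linked genes were left out by the rule, as were the ribosomal S6 kinases and all pseudogenes. The libraries came from LX2, an established human cell line with the traits of activated hepatic stellate cells, which deposit collagen when the liver scars. RNA was measured by 3′ tag sequencing, in which each transcript gives reads near its polyadenylated end, so levels of different genes were compared without dividing by length.

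Cultures received oleic acid (OLA, monounsaturated), docosahexaenoic acid (DHA, a longer and more unsaturated fatty acid) or vehicle (Veh), and then betacellulin (BTC, a growth factor that binds ErbB receptors) or its vehicle. Each fatty acid was at 50 µM, bound to 20 µM albumin, over 2 cycles of 48 h, and BTC was at 20 ng/ml for 72 h. The labels also carry 72 h for the fatty acid, against 96 h in the protocol, so its exposure time is not settled here. All groups shared 1 cell line and medium with 1% serum. Group names give the fatty acid first, as in DHA+BTC. The 6 groups Veh+Veh, Veh+BTC, OLA+Veh, OLA+BTC, DHA+Veh and DHA+BTC held 5 libraries each, 1 from each of 5 experiments. The sources do not say whether experiments were separate passages, and p-values therefore cover the spread among cultures of 1 line, which may be technical.

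Ribosomal proteins assemble with ribosomal RNA in the nucleolus, and their messages are among the most abundant in growing cells. Most of these messages begin with a cytosine followed by a run of pyrimidines, the 5′ terminal oligopyrimidine (TOP) tract, through which mTOR signalling and LARP1 control their translation. Several ribosomal proteins also act outside the ribosome, such as RPL5 and RPL11, which bind MDM2 when ribosome assembly is disturbed.

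The starts of the messages on which the comparisons below turn are shown first, with RPS21, the member that varied least once group and experiment were taken out. RefSeq (GRCh38.p14) listed at least 1 start for 66 of the 81 members. Each window holds 10 bases before the listed start and 20 from the start on, 5′ to 3′ on the gene's strand. Capitals mark a pyrimidine run of at least 5 bases, counted from a C at the start base.
RPS3 (chr11:75399508-75399537, plus strand): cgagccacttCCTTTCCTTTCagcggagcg
RPS24 (chr10:78033853-78033882, plus strand): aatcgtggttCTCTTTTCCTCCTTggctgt
RPSA (chr3:39406710-39406739, plus strand): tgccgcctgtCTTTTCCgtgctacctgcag
RPL22L1 (chr3:170870176-170870205, minus strand): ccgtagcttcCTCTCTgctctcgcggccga
RPS21 (chr20:62387093-62387122, plus strand): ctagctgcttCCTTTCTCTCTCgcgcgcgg
RPS15 (chr19:1438386-1438415, plus strand): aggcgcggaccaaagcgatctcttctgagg
RPL36AL (chr14:49620607-49620636, minus strand): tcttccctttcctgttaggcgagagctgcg
RPS3, RPS24, RPSA, RPL22L1 and RPS21 have such a run at the listed start, of 11, 14, 7, 6 and 12 bases. RPS15 and RPL36AL have no run of at least 5 bases counted from their listed start base. The start base of RPL36AL lies inside a longer pyrimidine run that begins before it, and the RPS15 window holds a pyrimidine run further on.

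A C at the start base followed by 4 or more pyrimidines stood at a listed start of 47 of the 66 matched members (71.2%). The same was found for 988 of 15843 protein-coding genes (6.24%). In the 300 bases from 250 before to 50 after each start, on either strand, the ETS motif CCGGAAG stood in 24 of 66 members (36.4%) and in 16.5% of all genes. The YY1 motif AAGATGGCG stood in 6 members (9.09%) and in 3.21% of all genes, and the TATA motif TATAAA in 6 members (9.09%) and in 12.4% of all genes. The SP1 motif GGGCGG was found in 59.1% of members and 64.3% of all genes, and the E-box CACGTG in 7.58% and 10.9%. These are letter matches and not measured sites. Members with a run of at least 5 at a listed start had a median level of 1089 CPM (47 genes), against 427 CPM for the 19 with a listed start and no such run. Their median differences between treatments were 0.05 and 0.09 on the log2 scale for DHA against vehicle and 0.11 and 0.17 for oleic acid against vehicle.

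Depth ran from 1245182 to 9490142 reads per library, and the 3 shallowest libraries were all from DHA groups (DHA+BTC 5, DHA+Veh 5 and DHA+BTC 4, the number being the experiment). At these depths a count of 0 allows up to 2.41 CPM at the shallow end and 0.316 CPM at the deep end, counting error alone considered. All 10 stellate markers checked reached 1 CPM on average, with summed levels of 1721 to 4377 CPM, and none of 5 hepatocyte markers did. Of 4 biliary, 4 leukocyte and 4 endothelial markers, 3, 3 and 1 reached 1 CPM, with summed levels of 10.5 to 158 CPM, 7.93 to 53.3 CPM and 0.296 to 46.3 CPM. Their part in the results was not tested.

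Levels of the members spanned a 501.5-fold range. RPS27A, made as a fusion with ubiquitin, was the highest at a mean of 10845 CPM (5113 to 21054 over 30 libraries). It was followed by RPL27A at 9505, RPL37A at 7730, RPS28 at 6525, RPS3 at 4970 and RPS21 at 4729 CPM. The lowest were RPL36A at 21.6 CPM, RPL39L at 25.0, RPS26 at 30.4, RPL26L1 at 43.0, RPL4 at 45.3 and RPL6 at 57.1 CPM. Of the 81 members, 37 lay at 1000 CPM or more, 35 between 100 and 1000 CPM and 9 under 100 CPM. Most of these proteins enter the ribosome in equal number, while their rows in the table differed this widely.

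Part of the reads of these families stood in rows named as pseudogenes. Ribosomal protein genes have many near-identical processed copies, and how reads matching several places were counted is not stated. There were 1605 such rows, 94 of them at 1 CPM or more, for 76 parents. RPL36A had 98.4% of its family's CPM in pseudogene rows, mostly in RPL36AP37 at 1317 CPM. RPL21 had 77.2% and RPS7 73.6%. Over all parents the median share was 0.605%, with 12 over 20% and 53 under 5%, so levels of RPL36A, RPL21 and RPS7 are uncertain while those of most members rest on their own row.

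Together the members took 12.0% of all reads, and that share followed the experiment more than the treatment. In experiments 1 and 2 the share was 9.18% ± 0.522 and 9.28% ± 0.513 (SD, n = 6 libraries each), and in experiments 3 and 4 it was 13.9% ± 0.886 and 15.1% ± 1.08. Experiment 5 lay between at 12.4% ± 1.44. The lowest library of experiments 3 and 4 (12.96%) was above the highest of experiments 1 and 2 (10.19%). By group the share was 11.6% ± 2.20 in Veh+Veh, 11.2% ± 2.10 in Veh+BTC, 11.8% ± 2.58 in OLA+Veh, 12.0% ± 2.88 in OLA+BTC, 12.8% ± 3.19 in DHA+Veh and 12.4% ± 3.51 in DHA+BTC (SD, n = 5 each). In bulk RNA such shares cannot tell apart fewer cells of a type from less RNA per cell, and a share can also move because other genes moved.

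**Figure D1:**
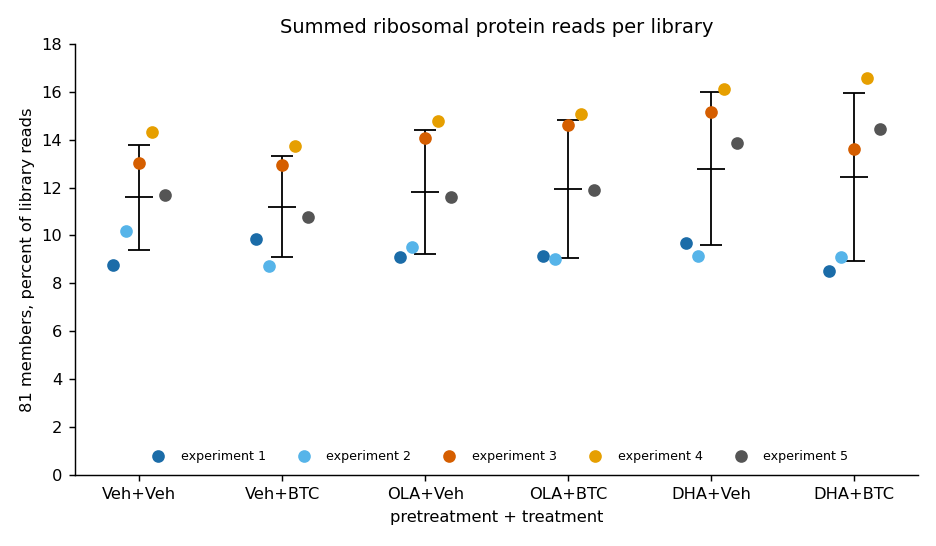
Summed CPM of the 81 members as a percent of library reads (y axis) for the 6 groups (x axis), 1 point per library coloured by experiment, with the group mean and SD as bars. Points of experiments 3 and 4 lie above those of experiments 1 and 2 in every group, and the group means lie between 11.2 and 12.8%.

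Within experiments, the share in the DHA libraries exceeded that in the vehicle libraries by 1.22 ± 1.47 percentage points (SD, n = 5 experiments). The differences were -0.211 and -0.329 points in experiments 1 and 2 and 1.40, 2.33 and 2.93 points in experiments 3, 4 and 5. DHA thus lay lower in the experiments of low share and higher in the others. For oleic acid against vehicle the difference was 0.483 ± 0.677 points, with 3 of 5 experiments up. For DHA against oleic acid it was 0.740 ± 1.12 points, with 3 of 5 up. On the log2 scale that difference was 0.07 for the sum and -0.04 for the mean of the members' log2 levels, so its direction turned with how the members were combined. For BTC against its vehicle the difference was -0.199 ± 0.314 points, with 3 of 5 experiments down. Each mean difference was smaller than its SD over experiments, and no p is given for a sum over chosen genes. The 5 most abundant members made up 33.1% of the sum.

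Gene by gene, the experiment was the largest source of variation. With limma on log2(CPM + 1), fitted on all 15137 genes that reached 1 CPM in 5 or more libraries, with group and experiment as terms, 69 of 81 members differed between experiments (adjusted p under 0.05). This was 85.2% of them, beside 71.4% of all genes tested and 85.6% of the 6156 other genes at 20 CPM or more, so the share of members is near that of genes of like level. The median member had 59.7% of its variance between experiments, 9.35% between groups and 29.7% left over, and for the other genes at 20 CPM or more the variance between experiments was 61.2%.

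RPL13, a large subunit protein, was among the members that varied most between experiments relative to their error (moderated F = 56.8, adjusted p = 5.4e-12). Its mean rose from 1238 ± 204.3 and 1151 ± 137.7 CPM in experiments 1 and 2 to 2977 ± 328.1 and 2874 ± 231.1 CPM in experiments 3 and 4, with 1092 ± 160.6 CPM in experiment 5 (SD, n = 6 each). No library of experiments 3 and 4 overlapped those of experiments 1 and 2. RPL35, RPL10, RPL8, RPSA, RPLP1 and RPS19 followed by the size of F.

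Comparing experiments 3 and 4 with 1 and 2, 65 of 81 members were higher, with a median of +0.74 on the log2(CPM + 1) scale, while the median of all genes was -0.52. Among the largest differences were those of RPS2 (+1.54), RPS26 (+1.51) and RPS15A (+1.41). At the other end lay RPL36A (-1.52), RPL7L1 (-1.02), RPL22 (-0.998), RPL5 (-0.93) and RPL7 (-0.88), which kept their sign under median-of-ratios scaling and quantile normalization. Under median-of-ratios scaling 75 members lay above 0 with a median of +1.31, beside -0.13 for all genes. Under quantile normalization 61 did, with a median of +0.43 beside 0.009. In 24 members all 12 libraries of experiments 3 and 4 lay above all 12 of experiments 1 and 2 (2.54% of all genes did), and in RPL5, RPL7 and RPL36A all lay below (16.8% of all genes). The choice of these 2 pairs of experiments was made after their levels were seen, so the counts are a description.

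**Figure D2:**
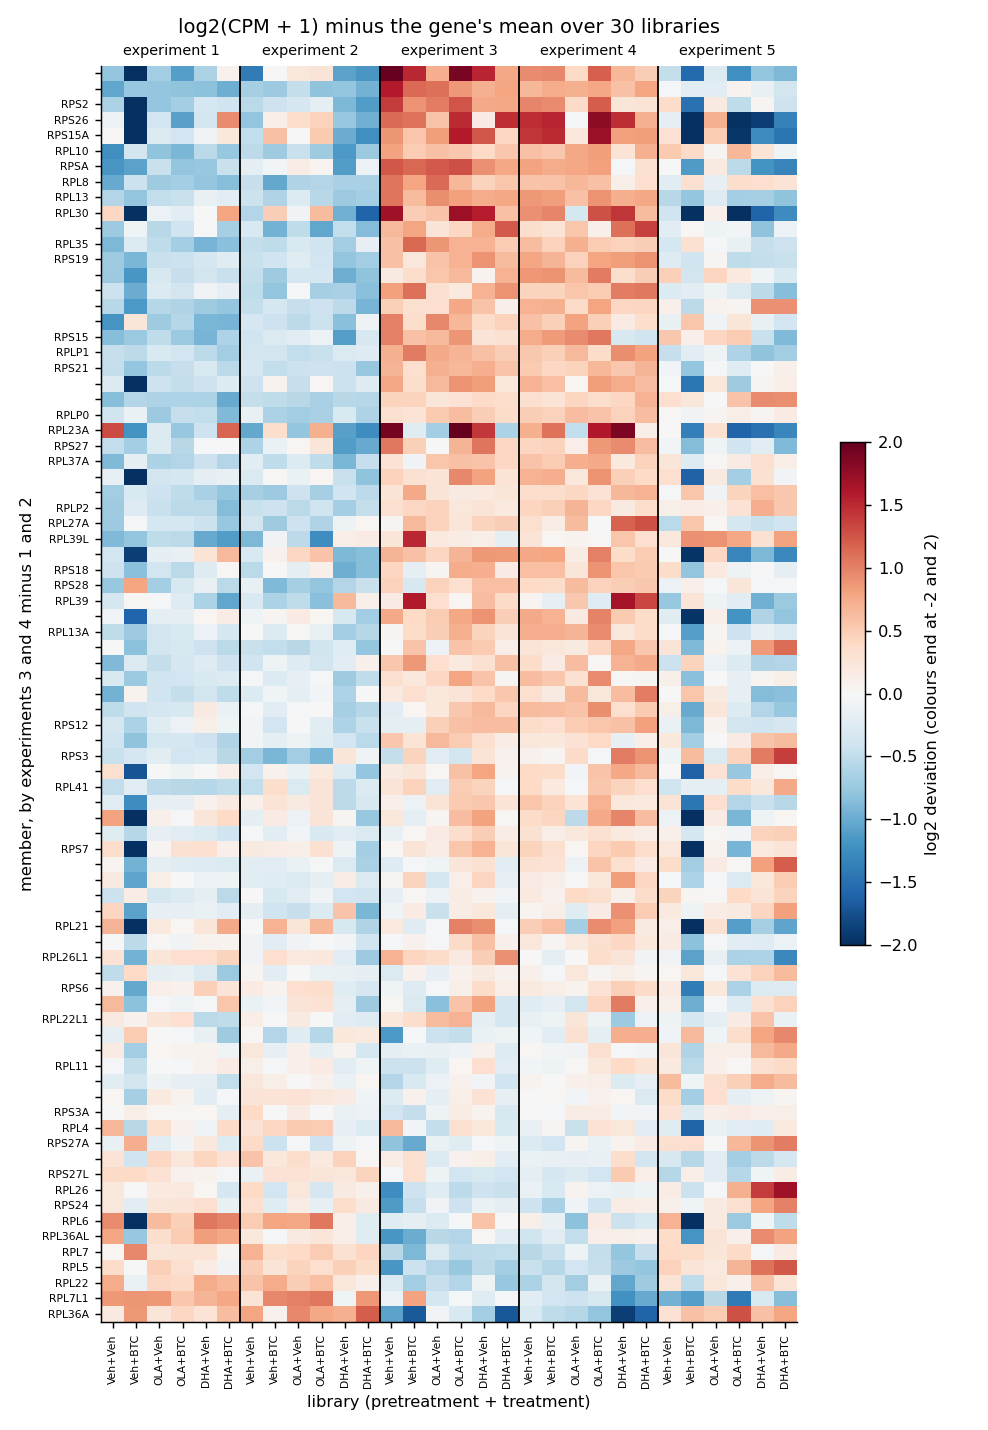
Deviation of log2(CPM + 1) from each member's mean over 30 libraries (colour, ending at -2 and 2). The 81 members are in rows ordered by experiments 3 and 4 minus 1 and 2, most of those described in the text labelled. Libraries are in columns grouped by experiment. Most rows turn from blue in experiments 1 and 2 to red in experiments 3 and 4, the rows from RPL36AL to RPL36A at the bottom turn the other way, and several rows, RPS15A among them, are deep blue in Veh+BTC of experiments 1 and 5.

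The size of this difference went with base composition. GC content of the last 300 transcript bases, where 3′ tags fall, was taken from the GENCODE 29 annotation. Across the 81 members it had a Spearman rho of 0.67 with the difference of experiments 3 and 4 from 1 and 2. Across 12429 tested genes with a value rho was 0.65. Genes of 1 set of libraries are not independent, and no p is given. The 27 members of lowest GC had a median difference of 0.09 with 16 above 0, the middle 27 a median of 0.61 with 22 above 0, and the 27 of highest GC a median of 1.12 with 27 above 0. RPL36A, with the lowest difference, was at 39.0% GC. The part of GC content in the experiment difference was not tested. For DHA against vehicle rho with GC was -0.24 over members and -0.02 over all genes.

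**Figure D3:**
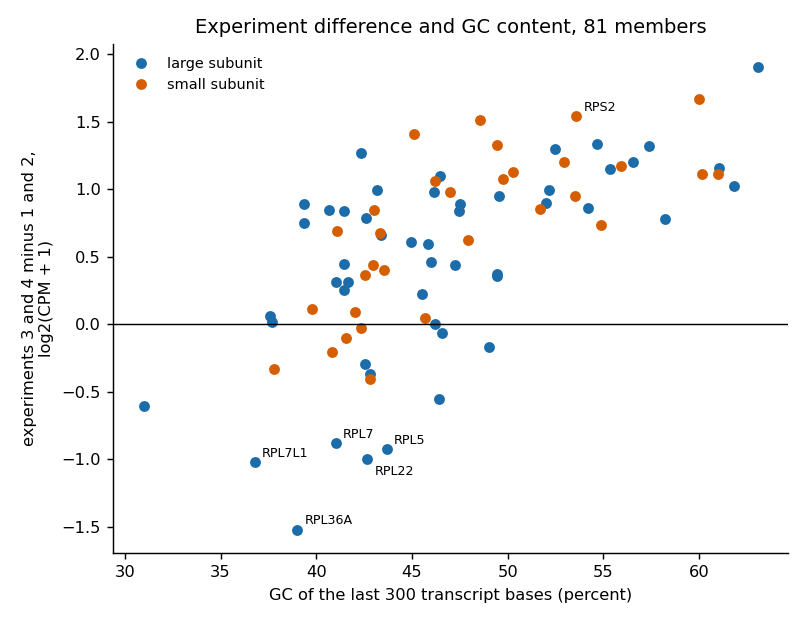
Log2 difference of experiments 3 and 4 from experiments 1 and 2 (y axis) against GC percent of the last 300 transcript bases (x axis), 1 point per member, coloured by subunit, with 6 members named. RPL36A lies lowest at -1.52, RPS2 is at 1.54, and the 27 points of highest GC all lie above 0.

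DHA moved few ribosomal protein genes. Against vehicle, averaged over BTC, RPL36AL, RPS24 and RPS3 rose and RPS15 fell, out of 81 members. That is 3 rises and 1 fall, where 2.33% of all 15137 genes rose and 8.38% fell. Of the members, 56 lay above 0 and 77 within 0.5 of 0 on the log2 scale. Their median was +0.05, beside -0.13 for all genes. An unadjusted limma p under 0.05 was found for 14 of the 81 members and for 3868 of all 15137 genes.

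RPS15 is a small subunit protein needed for export of the small subunit from the nucleus. Its level ran from 274 to 729 CPM with a median of 440 in the 10 DHA libraries, from 325 to 1184 with a median of 749 in the 10 vehicle libraries and from 351 to 1228 with a median of 819 with oleic acid. The groups overlapped over all experiments. Within experiments 3, 4 and 5 both DHA libraries lay below every vehicle and oleic acid library, and in experiments 1 and 2 they did not. The difference from vehicle was -0.60 (SE 0.139, limma adjusted p = 0.0048), and by experiment it was 0.03, -0.37, -0.51, -1.16 and -0.99. Without experiment 4 the adjusted p was 0.077, and without the 3 shallowest libraries the difference was -0.37 (adjusted p = 0.10).

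RPS15 has a pseudogene row, RPS15P4, that took 36.9% of the family's CPM and whose values lay the other way. RPS15P4 was at 508 ± 317 CPM with DHA, 361 ± 197 CPM with vehicle and 278 ± 138 CPM with oleic acid (SD, n = 10 each). Its difference for DHA was +0.38 against vehicle (limma adjusted p = 0.36) and +0.71 against oleic acid (adjusted p = 0.063), so neither passed the test. It held 49.1% ± 18.3 of the pair's CPM with DHA, 34.03% ± 13.4 with vehicle and 27.4% ± 11.3 with oleic acid. In experiment 5 the pair stood at 434 and 896 CPM in DHA+Veh and at 320 and 1112 CPM in DHA+BTC, RPS15 first. Summed over both rows, DHA differed from vehicle by -0.16 ± 0.30 log2 units and from oleic acid by -0.14 ± 0.28 (SD, n = 5 experiments), each up in 2 of 5. The fall of the RPS15 row is thus larger than that of the 2 rows together.

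**Figure D4:**
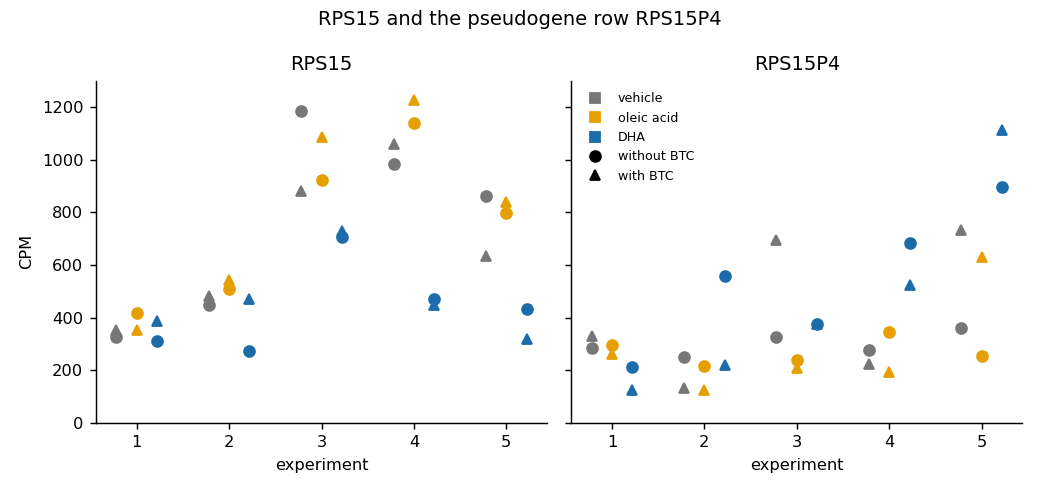
CPM (y axis) of RPS15 (left) and of the pseudogene row RPS15P4 (right) by experiment (x axis), 1 point per library, coloured by pretreatment, circles without and triangles with BTC. In experiments 3, 4 and 5 the DHA points of RPS15 lie below the others, and the DHA points of RPS15P4 reach 1112 CPM in experiment 5.

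RPL36AL, an intronless copy of RPL36A that encodes nearly the same large subunit protein, ran from 322 to 737 CPM with a median of 415 with DHA and from 168 to 658 with a median of 309 with vehicle. The rise was 0.67 (SE 0.162, limma adjusted p = 0.0068), with differences by experiment of 0.79, -0.14, 0.99, 0.41 and 1.28. Its vehicle libraries were themselves spread, with Veh+BTC at 225 and 168 CPM in experiments 1 and 5, where Veh+Veh stood at 658 and 491 CPM. RPL36AP37, the abundant row named for the family, differed by +0.38 (adjusted p = 0.19). Without experiments 3 or 5 or the 3 shallowest libraries the adjusted p of RPL36AL was 0.062, 0.069 and 0.11.

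RPS24, a small subunit protein mutated in some families with Diamond-Blackfan anaemia, ran from 2222 to 5024 CPM with a median of 2797 with DHA and from 1139 to 3117 with a median of 2139 with vehicle. The groups overlapped, and the rise of 0.50 (SE 0.13, limma adjusted p = 0.011) was seen in 5 of 5 experiments, from 0.09 in experiment 1 to 0.88 in experiment 5. Without experiments 4 or 5 the adjusted p was 0.097 and 0.090. The call held in 10 of 15 other settings, and was lost with quantile normalization (0.059), only the groups compared (0.052), 1 value per experiment and arm (0.074), no experiment term (0.27) and without the 3 shallowest libraries (0.16). RPS3, which lines the messenger RNA entry channel and also has a DNA repair role, ran from 3103 to 11835 CPM with a median of 5465 with DHA and from 2426 to 7085 with a median of 3961 with vehicle. Its highest 4 libraries were the DHA libraries of experiments 4 and 5, at 8477 to 11835 CPM. The rise was 0.57 (SE 0.156, limma adjusted p = 0.017), up in 4 of 5 experiments, and without experiments 2, 4 or 5 the adjusted p was 0.085, 0.13 and 0.077. The RPS3 call held in 8 of 15 other settings. It was lost in the same 5 as that of RPS24 (adjusted p of 0.094, 0.052, 0.085, 0.38 and 0.21), with no filter on low values (0.054) and without the Veh+BTC libraries of experiments 1 and 2 (0.053), a setting chosen after seeing the data. Pseudogene rows of RPS24 and RPS3 stayed under 1 CPM.

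RPL11 was next by p, at 1407 ± 221 CPM with DHA against 1130 ± 205 with vehicle (SD, n = 10), a difference of +0.32 with an adjusted p of 0.0555 by limma. It passed with edgeR (adjusted p = 0.019) and DESeq2 (0.0013) on the recovered reads. RPL5, its partner in binding MDM2, differed by +0.13 (95% interval -0.14 to 0.39). Among members often used as reference genes, RPLP0 was at -0.03 (-0.27 to 0.20), RPL13A at -0.01 (-0.27 to 0.26) and RPS18 at +0.05 (-0.27 to 0.36). RPL19, also used in this way, was not called by the main fit. It passed with median-of-ratios scaling (+0.43, limma adjusted p = 0.043) and with DESeq2 (+0.43, adjusted p = 0.028). The counts moved with the processing, for members and for all 15137 genes. Median-of-ratios scaling gave 6 rises and 1 fall among members, and 528 rises and 753 falls among all genes. Quantile normalization gave 1 and 1 among members, and 520 and 661 among all genes. DESeq2, which differs in its count model as well as its scaling, gave 9 and 1 among members, and 636 and 734 among all genes. Quantile normalization also moved the median of all genes from -0.13 to -0.002.

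**Figure D5:**
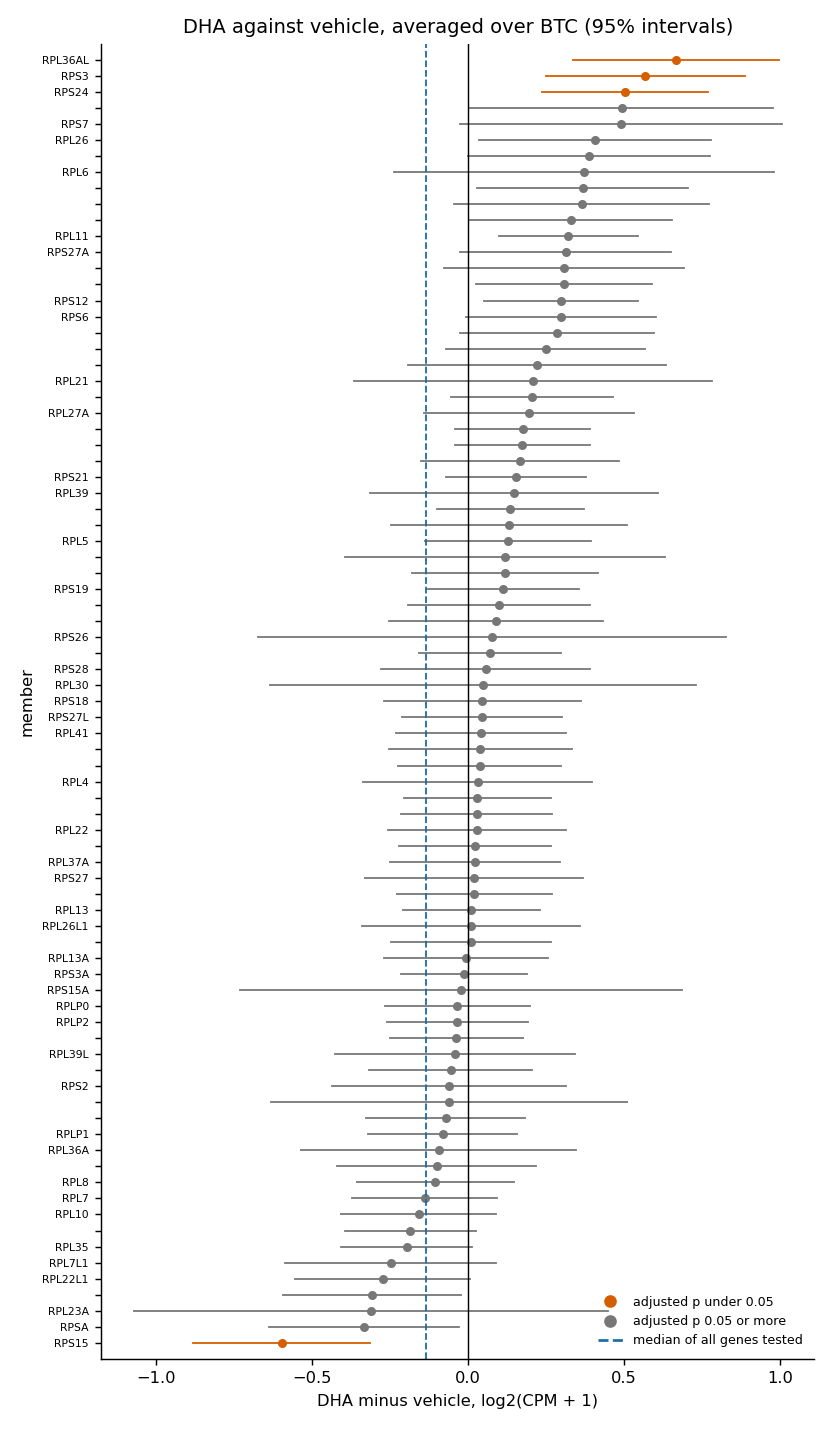
Log2(CPM + 1) difference of DHA from vehicle, averaged over BTC (x axis), for the 81 members (y axis, ordered by size, most of those described in the text labelled). Bars are 95% limma intervals, called members are orange, and the dashed line is the median of all genes tested. RPL36AL, RPS3 and RPS24 stand at the top, RPS15 at the bottom, and 56 points lie right of 0.

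DHA and oleic acid were given at the same dose and schedule, and this comparison uses the same DHA libraries as the one before. Averaged over BTC, RPS3 rose and RPS15, RPSA and RPL22L1 fell with DHA against oleic acid, where 2.4% of all genes rose and 8.96% fell. RPS15 differed by -0.73 (SE 0.139, limma adjusted p = 0.00077), lower in 5 of 5 experiments, beside the pseudogene values above. RPS3 differed by +0.62 (SE 0.156, adjusted p = 0.0095), up in 4 of 5, with oleic acid libraries at 2416 to 6285 CPM and a median of 3840. Without experiments 2, 4 or 5 its adjusted p was 0.053, 0.082 and 0.071. This RPS3 call held in 11 of 15 other settings.

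RPSA, the small subunit protein also known as the laminin receptor precursor, ran from 116 to 553 CPM with a median of 244 with DHA and from 170 to 723 with a median of 330 with oleic acid. It differed by -0.57 (SE 0.149, limma adjusted p = 0.012), lower in 4 of 5 experiments, and its adjusted p was 0.084 and 0.076 without experiments 4 or 5 and 0.070 with edgeR. The RPSA call held in 11 of 15 other settings, edgeR being among those in which it was lost. RPL22L1, the paralog of RPL22, ran from 48.2 to 121 CPM with a median of 68.1 with DHA and from 71.3 to 131 with a median of 93.3 with oleic acid. It differed by -0.47 (SE 0.137, limma adjusted p = 0.024), lower in 4 of 5 experiments, and the 121 CPM was DHA+Veh in experiment 5. That call held in 8 of 15 other settings. Among those in which it was lost were edgeR (adjusted p = 0.21), DESeq2 (0.20), TMM (0.10) and median-of-ratios scaling (0.17). The RPL22L1 call was also lost without experiments 1 (0.12), 2 (0.0501), 3 (0.17) or 4 (0.10), and without OLA+BTC 3 (0.051), DHA+BTC 3 (0.0505) or DHA+Veh 4 (0.056) alone.

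RPL36AL and RPS24, which rose against vehicle, differed from oleic acid by +0.32 (95% interval -0.01 to 0.65) and +0.24 (-0.02 to 0.51), and RPLP0 by -0.02 (-0.25 to 0.22). These intervals do not show that the fatty acids act alike on them. The median of the members was -0.04, beside -0.17 for all genes, and turned positive under TMM (0.05) and median-of-ratios (0.08) scaling, edgeR (0.09) and DESeq2 (0.10). TMM and median-of-ratios scaling each gave 1 rise and 2 falls among members, where 483 and 515 of all genes rose and 830 and 752 fell. Quantile normalization gave 0 and 2 among members (532 and 648 among all genes), and DESeq2 4 and 2 (664 and 747).

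No member passed the test for oleic acid or for BTC. For oleic acid against vehicle limma called 0 of 81 members and 0% of all genes, and edgeR and DESeq2 called 0 members. With limma 3 members had an unadjusted p under 0.05, beside 302 of all 15137 genes. The smallest was that of RPS12, a small subunit protein, at 1312 ± 339 CPM against 1043 ± 279 (SD, n = 10; +0.33, p = 0.0097, limma adjusted p = 1.00, 5 of 5 experiments up). RPL36AL differed by +0.35, up in 5 of 5, and 60 of 81 members lay above 0 with a median of +0.13, beside 0.02 for all genes. With BTC 61 lay above 0 (median +0.25, beside 0.03 for all genes) and 23 had an unadjusted p under 0.05, beside 1044 of all 15137 genes. Without BTC 41 lay above 0 (median +0.01, beside 0.02 for all genes) and 0 had such a p, beside 468 of all genes. In both arms limma, edgeR and DESeq2 called 0 members, and the arm with BTC rests on the Veh+BTC libraries, of which those of experiments 1 and 5 are described below as low in many members. For BTC limma called 0 members and 0% of genes, and edgeR and DESeq2 called 0 members. An unadjusted limma p under 0.05 was found for 6 members and for 609 of all 15137 genes. RPL41 (+0.26, 5 of 5 experiments up) and RPS6, the target of the S6 kinases (-0.28, 4 of 5 down), had the smallest. With BTC 23 of 81 members lay above 0, with a median of -0.09 beside -0.02 for all genes.

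Split by BTC, RPL36AL was higher with DHA than with vehicle in the arm with BTC (+0.88, SE 0.229, limma adjusted p = 0.025). There 3.55% of all genes were called. Oleic acid differed from vehicle in that arm by +0.71 (limma adjusted p = 0.69, not called). Means of RPL36AL were 256 ± 87.6 CPM in Veh+BTC, 413 ± 105 in OLA+BTC and 474 ± 170 in DHA+BTC, beside 409 ± 188 in Veh+Veh (SD, n = 5 each). Without BTC DHA changed 0 members (1.54% of all genes), and 1 with edgeR and 1 with DESeq2. In that arm 5 members and 2251 of all 15137 genes had an unadjusted limma p under 0.05. The RPL36AL call was lost without any of Veh+BTC 1 (adjusted p = 0.089), Veh+BTC 5 (0.14) and DHA+BTC 3 (0.068), 4 (0.055) or 5 (0.11). DHA against oleic acid lowered RPS15 (-0.77, adjusted p = 0.026) and RPSA (-0.82, adjusted p = 0.028) without BTC (3.27% of all genes). Both calls were lost without any of DHA+Veh 2, 4 or 5 or OLA+Veh 5, with adjusted p of 0.059, 0.084, 0.070 and 0.090 for RPS15 and 0.081, 0.076, 0.092 and 0.13 for RPSA, and that of RPS15 without OLA+Veh 4 (0.086). With BTC 0 members were called for DHA against oleic acid (1.72% of all genes), and 1 with DESeq2. There 3 members and 2399 of all 15137 genes had an unadjusted limma p under 0.05. The interactions of DHA and of oleic acid with BTC called 0 members with limma, edgeR and DESeq2. At an unadjusted limma p under 0.05 stood 0 and 14 members, beside 527 and 1279 of all 15137 genes. A difference of the response between the BTC arms was thus not shown.

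What group and experiment left over was shared by many members. The SD left was largest for RPL23A (1.00), RPS26 (0.97), RPS15A (0.93), RPL30 (0.90) and RPL6 (0.78). Among the smallest were RPS21 (0.15), RPS3A (0.17), RPL35 (0.17) and RPL13 (0.18). The median was 0.33, beside 0.36 for the other genes at 20 CPM or more. RPS15A, at the first of these ends, stood at 33.1, 364, 358, 683 and 25.3 CPM in Veh+BTC 1 to 5 and at 200, 242, 432, 280 and 343 CPM in OLA+Veh 1 to 5. RPS21 stood at 2606, 3154, 5570, 5926 and 2600 CPM in the same Veh+BTC libraries. The 2 lowest values of RPS15A fell in Veh+BTC 1 and 5, and 18 members had their lowest deviation in each of these 2 libraries. Other members went the other way, with 9 at their highest deviation in Veh+BTC 1 and 3 in Veh+BTC 5.

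The leading component of what was left over carried 58.3% of the members' remaining variance and 35.8% of that of the other genes at 20 CPM or more. On it 51 members had positive and 30 negative weights. Veh+BTC 1 and 5 lay at its low end, and Veh+BTC 2 and OLA+Veh 5 at its high end. In 28 of 30 libraries the score over the members and the score over the other genes had the same sign, so the pattern was not limited to ribosomal protein genes. The comparison of BTC with its vehicle after vehicle rests on the Veh+BTC libraries. There 20 of 81 members and 1539 of all 15137 genes had an unadjusted limma p under 0.05, and 0 were called. Among members the smallest p was that of RPL6 (-1.32, limma adjusted p = 0.44).

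Paralog forms differed in how much of their pair they held. RPS27L, a paralog of RPS27 known as a p53 target, stood at 215 CPM against 199 for RPS27 and made 53.2% of the pair. The pair leaves out pseudogene rows, which held 45.8% of the CPM of RPS27 and its pseudogenes, mostly in RPS27P3 at 167 CPM. These rows may hold RPS27 reads, so which form was the more abundant is not settled. RPS27L held 62.4 and 64.1% of the pair in experiments 1 and 2, 40.6 and 42.1% in experiments 3 and 4 and 57.0% in experiment 5. RPL22L1 stood at 83.0 CPM against 138 for RPL22 and made 38.9% of the pair, with 31.3 and 30.9% in experiments 1 and 2 and 50.6 and 45.9% in 3 and 4. In both pairs the share moved with the experiment.

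RPL7L1, which acts in large subunit assembly, made 15.0% of its pair with RPL7 and ranged from 7.19% in experiment 5 to 19.8% in experiment 3. RPL39L, a form best known from testis, made 4.25% of its pair with RPL39, with 8.01% in experiment 5 and 2.83 to 3.56% in the others. RPL26L1 made 3.66% of its pair with RPL26. RPL36AL made 94.7% of its pair with RPL36A, whose reads may lie in pseudogene rows. Of these 6 paralog forms, RPL36AL and RPL22L1 passed a test in the treatment comparisons above, and RPS27L differed for DHA against vehicle by +0.04 (95% interval -0.21 to 0.30).

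The ribosomal protein genes fused to ubiquitin-like sequences and the scaffold RACK1 gave 0 calls of 3. FAU stood at 3155 ± 1562 CPM with DHA against 2962 ± 1508 with vehicle, and RACK1 at 1809 ± 673 against 1389 ± 437 (SD, n = 10 each). Of 15 translation factors that share the TOP start, DHA lowered PABPC1, the poly(A)-binding protein, against vehicle (-0.73, limma adjusted p = 0.033). In that comparison 8.38% of all genes fell. Against oleic acid DHA lowered PABPC1, EIF4A2 and HNRNPA1, where 8.96% of all genes fell. EEF2, TPT1 and EEF1A1 passed neither of these tests of DHA. Between experiments 14 of the 15 differed, beside 71.4% of all genes tested and 85.6% of the non-member genes at 20 CPM or more.

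Most genes that build or regulate ribosomes passed no test of DHA against vehicle. The counts below stand beside 2.33% rises and 8.38% falls among all genes, and with edgeR the all-gene counts were 454 rises and 496 falls. Of 40 ribosome assembly factors, 1 rose and 5 fell with DHA against vehicle, with the smallest p for DKC1, the pseudouridine synthase (-0.59, limma adjusted p = 0.0035), RIOK1 and FTSJ3. Of 26 other initiation factors 0 rose and 2 fell (EIF3A by -0.56 and EIF1AX by -0.36), and of 14 genes of RNA polymerase I and its factors TAF1B fell. Of 18 genes that control TOP messages or ribosome number EIF4EBP2 (-0.53, adjusted p = 0.0076) and RPS6KB2 fell, while LARP1, EIF4EBP1, RPS6KB1 and MYC did not pass. Of 71 mitochondrial ribosomal protein genes 0 rose and 4 fell, among them MRPL12 (-0.75, limma adjusted p = 0.0032), MRPL28 and MRPL11. For oleic acid and BTC limma called 0 genes in each of these lists, as over all genes, where 302 and 609 had an unadjusted p under 0.05.

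Of 10 p53 target and partner genes read out under nucleolar stress, 5 rose and 0 fell with DHA against vehicle (2.33% of all genes rose), and 4 rose and 0 fell against oleic acid (2.4% of all genes rose). Over the 10 the median was +0.35 against vehicle, from -0.06 to +1.88. GDF15, a secreted stress cytokine, went from 40.4 ± 24.1 to 160 ± 114 CPM (+1.88, limma adjusted p = 5.0e-07). CDKN1A, a cyclin-dependent kinase inhibitor, went from 220 ± 132 to 369 ± 195 CPM (+0.79, adjusted p = 0.00089), and SESN2 from 81.7 ± 31.6 to 116 ± 39.2 CPM (+0.49, adjusted p = 0.016; SD, n = 10 each). These genes also respond to other stresses, and their rise was not linked to the ribosomal protein genes by any test here.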

How the data were processed

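RNA of 30 LX2 cultures was sequenced with a QuantSeq 3′ kit, per the labels' protocols. The deposited table holds CPM, scaled by the authors to the library total. The submitters' processing notes name STAR 2.5.3a and HTSeq 0.6.0. Build, annotation, strand setting and the treatment of multiply mapping reads are not given in the sources used here. Reads of overlapping or near-identical genes may thus be split between them. CPM steps gave whole reads (within 0.01 read) for 100% of values, and edgeR 4.0.16 and DESeq2 1.42.0 were run on them as alternatives.

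The test was limma 3.58.1 (R 4.3.3, trend, two-sided) on log2(CPM + 1) of the 15137 genes that reached 1 CPM in 5 or more libraries, all 81 members among them, with group and experiment as terms. Benjamini-Hochberg adjustment ran over all of these genes per comparison, and an adjusted p under 0.05 was a call. Log2 differences understate the change of genes near the floor. Averaged comparisons treat both BTC arms of 1 experiment as independent once the experiment term is in the model. The labels name the experiment. In 75 same-experiment library pairs, the correlation of deviations from the group mean was at least 0.119 (median 0.507), so the experiment pairs the samples. Tested on simulated data for DHA against vehicle (14652 genes), the fit recovered 77 of 100 genes changed by 1 log2 unit and 29 of 100 changed by 0.6, with 12 false calls. The simulated noise was drawn for each gene on its own, without the leftover pattern that many genes shared here. These counts therefore hold for that setting only.

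Members and lists were chosen with earlier results of these data known. Named members were the called ones (or the 5 smallest p), the 6 highest and lowest by level, the 5 largest and smallest in SD left over, paralogs, reference genes and genes with extra roles. From each list the 3 smallest p were eligible. RPS15P4, RPL36AP37 and the members named for their difference between experiments fall outside this rule and were chosen after their values were seen. Starts and promoters came from RefSeq, GC content from GENCODE 29. A few genes that the rule names are not reported individually here.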

Additional observations from a re-analysis of the deposited data

Results flagged for a closer look

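RPS24 stood at 5024 CPM in DHA+BTC of experiment 5, far from the other 4 libraries of that group, which lay between 2222 and 2822 CPM. In that experiment DHA+Veh was the next highest of all libraries at 4326 CPM, and DHA+BTC of experiment 5 is the shallowest library, with 1245182 reads. The check covered, in each of the 6 groups, only the members called in a treatment comparison and the summed shares of members, subunits and pseudogene rows. The other members were not checked. Of these 60 sets of 5 libraries this was the only 1 flagged, where chance gives about 1 in 20.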

How the results depend on the processing

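Without the replicate block the group was the only term. In that fit 0 members were called for DHA against vehicle and for DHA against oleic acid. The same held for DHA against vehicle with BTC and for DHA against oleic acid without BTC. Among all 15137 genes DHA against vehicle then gave 49 rises and 55 falls, beside 352 and 1269 in the main fit. DHA against oleic acid gave 36 and 32, beside 363 and 1356. For DHA against vehicle (4 members called) the count was 7 with median-of-ratios scaling, 2 with quantile normalization, 2 with only the groups compared, 2 with 1 value per experiment and arm, 10 with DESeq2 and 1 without the 3 shallowest libraries. The all-gene counts moved too. They were 249 rises and 752 falls with only the groups compared and 210 and 574 with 1 value per experiment and arm. Without the 3 shallowest libraries they were 188 and 387. For DHA against oleic acid (4 called) the member count was 2 with quantile normalization, 1 with 1 value per experiment and arm, 2 with edgeR and 2 without the 3 shallowest libraries. Among all genes 202 rose and 569 fell with 1 value per experiment and arm, and 484 and 481 with edgeR. Without the 3 shallowest libraries 182 rose and 355 fell. For the comparisons split by BTC the all-gene shares of the main fit are given above. For DHA against vehicle with BTC (1 called) the member count was 0 with no filter, with only the groups compared and without the 3 shallowest libraries. It was also 0 without the Veh+BTC libraries of experiments 1 and 2, a setting chosen after seeing the data, and 5 with DESeq2. For DHA against oleic acid without BTC (2 called) it was 0 with no filter, with only the groups compared and with edgeR, and 1 with TMM. For DHA without BTC (0 called) it was 1 with the 5 CPM filter, edgeR, DESeq2 or without the 3 shallowest libraries, and for DHA against oleic acid with BTC (0 called) 1 with the 5 CPM filter or DESeq2. The cause of these changes was not tested. The summed difference for BTC was -0.10 as a mean of log2 values and -0.03 as a log2 sum. A C at the start base and 6 or more pyrimidines after it stood in 54.5% of matched members and 3.38% of all genes. A run of 5 or more that began within 5 bases of the start base stood in 83.3% and 28.0%. No direction of a called value reversed.

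Leaving out each library or experiment in turn gave 1 to 6 calls for DHA against vehicle and for DHA against oleic acid, 0 to 3 and 0 to 4 for DHA against vehicle without and with BTC, 0 to 4 and 0 to 1 for DHA against oleic acid without and with BTC, 61 to 71 for the experiment, and 0 for oleic acid, BTC and the interactions. Among all genes, DHA against vehicle gave 238 rises and 525 falls without experiment 4, and 363 and 1405 without experiment 2. The fall of RPS15 against oleic acid kept its call in 49 of 50 settings, all but the fit without the block. Depth limits the DHA groups most, which hold the 3 shallowest libraries.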
